A study of Sus scrofa with 6 samples.

Results

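Transcripts of 10 genes of the blood vessel wall and of vessel growth were followed through 3 stages of the pig ovarian follicle. Of these genes, 5 mark the cells that line vessels (CDH5, VWF, PECAM1, KDR and TEK) and 5 encode secreted factors that act on vessels (VEGFA, ANGPT1, ANGPT2, ANGPTL4 and ADM). Every probe set to which the platform annotation gives only one of these symbols was taken, which gave 22 of the 23999 probe sets that are not controls, 12 for the vessel markers and 10 for the factors. The annotation names 6765 genes through probe sets with 1 symbol.

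The follicles came from ovaries of gilts before puberty and had been sorted by their appearance and diameter. Total RNA of whole follicles was measured on Affymetrix porcine arrays, 2 for each of the stages titled primordial, middle and last. No treatment, genotype, breed or age beyond the prepubertal state is given for any group, and the sources used here do not give the diameters that define the stages. The titles call the arrays of a stage biological replicates. No source says that they came from separate animals, and a p-value here covers the spread between these arrays, which may be technical. A separate description attached to all 6 samples calls them primordial, and the stage names used here rest on the titles alone.

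In the mammalian ovary the granulosa layer next to the oocyte has no vessels of its own until ovulation, and the capillaries of a growing follicle lie in the theca around it. VEGFA, the main growth factor of endothelium, is secreted by granulosa and theca cells and acts through the receptor kinase KDR. The angiopoietins ANGPT1 and ANGPT2 bind the endothelial receptor kinase TEK (also called TIE2), ANGPT1 as an agonist that steadies vessels and ANGPT2 as a context-dependent antagonist that loosens them. ADM (adrenomedullin) is a peptide that dilates vessels and tightens the endothelial barrier, and ANGPTL4 is a secreted inhibitor of lipoprotein lipase that also acts on vessel growth and permeability. CDH5 (VE-cadherin) and PECAM1 (CD31) are adhesion proteins of endothelial junctions, and VWF is the clotting factor stored in endothelial granules and in platelets.

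Signals are the linear intensities of the deposited table, which had been scaled to the same trimmed mean on every array. Of the 22 probe sets, 13 had a mean signal over the 6 arrays of at least 91.3, the 40% mark used as a filter, and entered the tests (5 for the vessel markers and 8 for the factors). The other 9 were too dim, among them both probe sets of KDR, so 9 of the 10 genes could be tested. Differences are in log2(signal + 16), given ± the standard error of the limma fit to all 6 arrays (n = 2 arrays a stage), and called at an adjusted p under 0.05 over the 14399 probe sets tested. The added 16 understates the change of dim probe sets. Levels of different probe sets are not compared with each other, since each probe set has its own response. Stages said not to overlap are described from 2 arrays each. This is not a test, and the share of all probe sets without overlap was not counted.

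Arrays of a stage resembled each other (Pearson's r of 0.955 to 0.973 over the tested probe sets, against 0.721 to 0.882 between stages). Differences between stages were widespread, and 50.3% of the tested probe sets were called by the F-test of limma over the 3 stages. In middle minus primordial, last minus middle and last minus primordial, 47.4%, 17.2% and 33.2% were called. Counts of called genes in a list are to be read beside these shares. Over all tested probe sets, middle minus primordial had a median difference of 0.22, last minus middle one of -0.07 and last minus primordial one of 0.14. The arrays titled primordial were low in transcripts that define an oocyte: the summed signal of 9 oocyte genes was 451.2 and 452.6 there, 17896.6 and 19426.7 in the middle arrays and 781.7 and 806.2 in the last arrays. They were high in leukocyte transcripts, with a summed signal of 11 genes of 24153.4 and 21382.1, against 1939.7 and 1402.1 in the middle arrays and 2235.8 and 6018.1 in the last arrays. In whole follicles, fewer cells of a type and less RNA per cell cannot be told apart.

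The endothelial markers did not share 1 course through the stages. CDH5 and VWF were highest in the last arrays and did not pass the test between the middle and primordial arrays, PECAM1 was lowest in the middle arrays and overlapped between the last arrays and those titled primordial, and no difference of TEK passed the test.

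CDH5, the cadherin of endothelial junctions, had signals of 98.8 and 187.7 in the arrays titled primordial, 235.8 and 206.2 in the middle arrays and 812.2 and 1079.1 in the last arrays. The last arrays were above all others, and the ranges of the 3 stages did not overlap. CDH5 rose in the last arrays by 2.01 ± 0.31 over the middle arrays (4.03-fold, limma adjusted p = 0.00249) and by 2.64 ± 0.31 over the arrays titled primordial (6.23-fold, limma adjusted p = 4e-04). Middle minus primordial was 0.63 ± 0.31 and did not pass (limma adjusted p = 0.117, interval of the difference -0.06 to 1.32). Without primordial replicate 2, the brighter of its pair, that difference was 1.04 and passed (limma adjusted p = 0.0319). The other CDH5 probe set was dim, with signals of 2.7 to 75.8 and its highest value in the last arrays.

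VWF had 153.8 and 197.1 in the arrays titled primordial, 174.5 and 103.8 in the middle arrays and 427.4 and 614.3 in the last arrays. Only the last arrays stood apart, and the other stages overlapped. VWF rose in the last arrays by 1.81 ± 0.31 over the middle arrays (limma adjusted p = 0.00452) and by 1.47 ± 0.31 over the arrays titled primordial (limma adjusted p = 0.00678). Middle minus primordial was -0.33 ± 0.31 (limma adjusted p = 0.404). VWF is also made by the cells that give rise to platelets. The summed signal of 3 platelet genes was between 287.9 and 366.4 on every array, and neither tested platelet gene, GP9 nor ITGA2B, passed the test in any comparison (limma adjusted p of 0.395 or more). PPBP, also of that list, was too dim for the filter. The part of platelets in the VWF signal was not tested. The remaining probe sets of VWF lay below the filter, at 6.6 to 84.8.

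PECAM1 was measured by a pair of probe sets that moved together. The brighter had 968.7 and 893.5 in the arrays titled primordial, 195.8 and 258.3 in the middle arrays and 721.9 and 894.2 in the last arrays. The dimmer had 189.6 and 258.6, then 42.9 and 17.9, then 220.7 and 220.6 in the same order. In both, the middle arrays were the lowest and the outer stages overlapped. PECAM1 fell in the middle arrays against those titled primordial, with differences of -1.97 ± 0.23 and -2.41 ± 0.36 (limma adjusted p = 0.000169 and 0.000632). It rose in the last arrays by 1.77 ± 0.23 and 2.40 ± 0.36 over the middle arrays (limma adjusted p = 0.00108 and 0.00216). Last minus primordial was -0.21 ± 0.23 with an interval of -0.72 to 0.30 for the brighter probe set, and -0.01 ± 0.36 with an interval of -0.81 to 0.79 for the dimmer (limma adjusted p = 0.514 and 0.992).

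PECAM1 is carried by leukocytes and platelets as well as by endothelium. All 9 tested leukocyte genes fell in the middle arrays against those titled primordial, with differences of -2.33 (CD163) to -5.17 (CD53), as PECAM1 did. In last minus middle, where PECAM1 rose, all 9 had positive differences, of 0.63 to 1.48 with a median of 1.205. Of these, 2 passed the test, ITGB2 and LAPTM5, calls that were lost under 4 and 3 of 15 alternatives. In last minus primordial all 9 fell, with differences of -1.41 (CD163, lost under 8 of 15 alternatives) to -4.20, where PECAM1 was not called. PTPRC and CD14, which define leukocytes and monocytes, were too dim for the filter, at 21.0 to 56.5 and 18.5 to 79.6. The part of leukocytes in the PECAM1 signal was not tested.

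TEK, the angiopoietin receptor, had 106.2 and 159.4 in the arrays titled primordial, 224.6 and 146.5 in the middle arrays and 172.7 and 221.2 in the last arrays. The stages overlapped except that the last arrays lay above those titled primordial. The differences were 0.43 ± 0.32, 0.10 ± 0.32 and 0.53 ± 0.32 for middle against primordial, last against middle and last against primordial arrays (limma adjusted p = 0.293, 0.866 and 0.233), and the last of these had an interval of -0.19 to 1.25. Both other probe sets of TEK were at 1.7 to 24.3. KDR, the main VEGFA receptor, was dim on all arrays, with signals of 2.8 to 23.8 at the A1 probe set and 2.7 to 36.9 at the S1 probe set. The A1 probe set had its highest values in the last arrays, at 21.1 and 23.8, and the S1 probe set in the middle arrays, at 9.8 and 36.9. Neither passed a test without the filter.

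**Figure D1:**
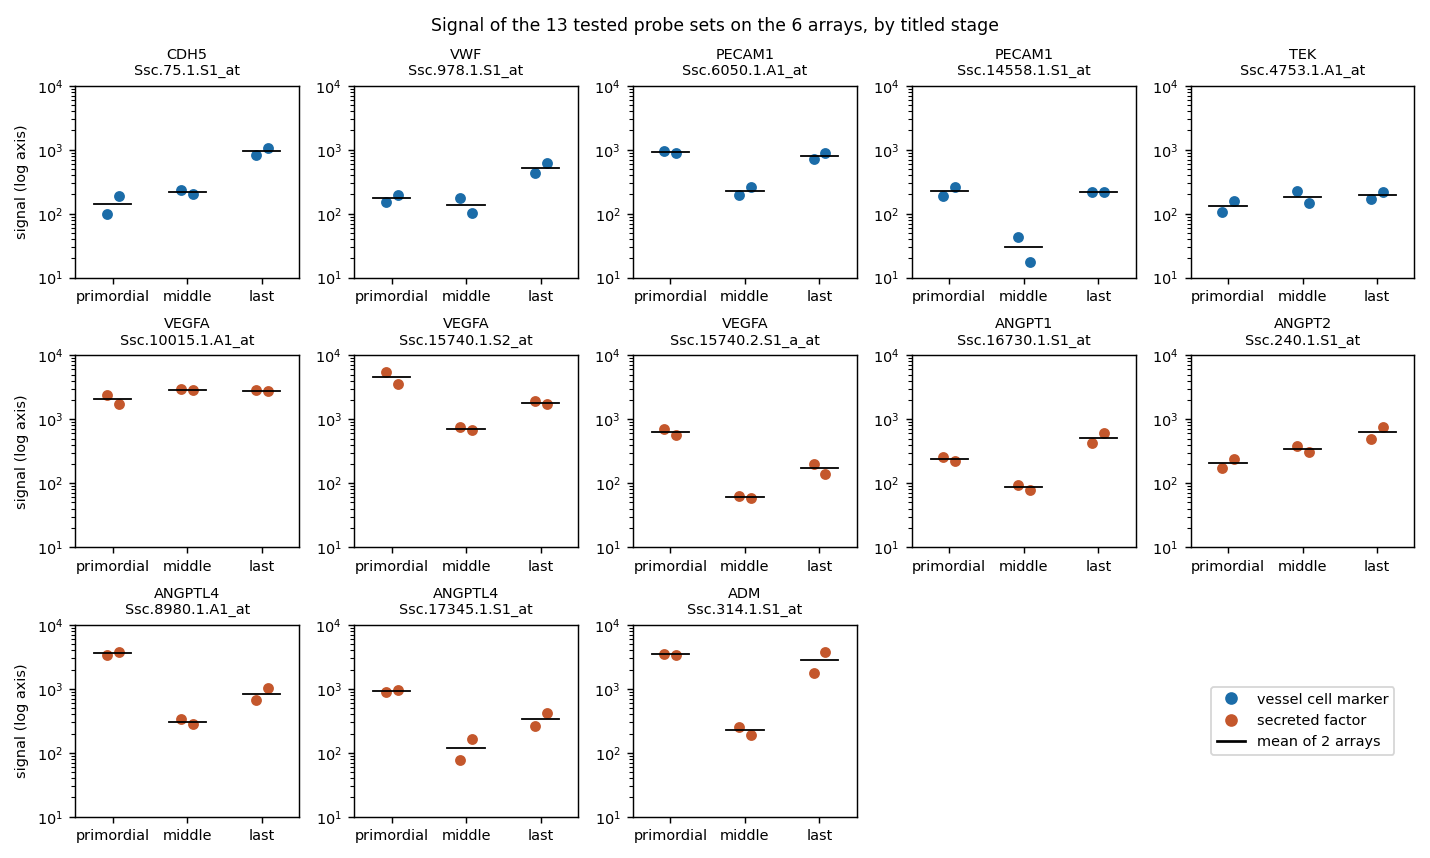
Signal of each of the 13 tested probe sets (log axis) on the 6 arrays, by titled stage, with vessel cell markers in blue and secreted factors in orange. Panel titles give the probe set, points are arrays and bars are means of 2 arrays. CDH5 and VWF are highest in the last arrays, and the PECAM1, ANGPTL4, ADM and ANGPT1 panels and 2 of the 3 VEGFA panels are lowest in the middle arrays.

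Other endothelial genes divided in the same comparisons. Of 27 listed genes 17 were on the array and 16 were tested, at the brightest probe set of each. In last minus primordial 9 rose and 3 fell, with a median of 1.14, where 33.2% of all tested probe sets were called. In last minus middle 5 passed the test and each rose (SELE, ESAM, LMO2, ECSCR and CLDN5), with a median of 0.74. The rise of ECSCR and that of CLDN5 lost the call under 2 and 5 of 14 alternatives. The middle means of SELE, ECSCR and CLDN5 (24.05, 69.3 and 90.75) were below the filter, and those of ESAM and LMO2 (105 and 276.2) above it. The filter takes the mean over all arrays, so high last arrays helped SELE, ECSCR and CLDN5 to enter the test. The part of this selection in the count of rises was not tested. In middle minus primordial 3 rose and 4 fell, with a median of -0.16, where 47.4% of all tested probe sets were called. These 16 genes did not include the members, and the counts are descriptions of a list chosen with earlier results of these data known.

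ESAM, an adhesion protein of endothelial tight junctions, was highest in the last arrays, as CDH5 was. Its signals were 109.7 and 65.5 in the arrays titled primordial, 98.8 and 111.2 in the middle arrays and 329.7 and 450.4 in the last arrays. It rose in the last arrays by 1.73 ± 0.32 over the middle arrays (limma adjusted p = 0.0062, but 0.0674 without middle replicate 1) and by 1.99 ± 0.32 over those titled primordial (limma adjusted p = 0.00191). ICAM2, an adhesion molecule of endothelium, leukocytes and platelets, fell with the leukocyte list. It had 334.5 and 549.1 in the arrays titled primordial, 70.9 and 83.8 in the middle arrays and 122.9 and 167.1 in the last arrays. It fell by 2.26 ± 0.32 in middle minus primordial (limma adjusted p = 0.000478) and by 1.48 ± 0.32 in last minus primordial (limma adjusted p = 0.00717, but 0.0739 without primordial replicate 2). THBD and VCAM1, chosen here after their values were seen as the remaining genes that fell in last minus primordial, are also expressed outside endothelium, and THBD lost that call under 10 of 15 alternatives. The part of cells outside endothelium in these falls, and in the rises of other genes of the list, was not tested.

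CAV1, the coat protein of caveolae, and S1PR1, a receptor for sphingosine 1-phosphate, were already high in the middle arrays. CAV1 had 219.0 and 728.3 in the arrays titled primordial, 3686.9 and 2576.3 in the middle arrays and 4641.7 and 4767.5 in the last arrays, and it rose by 2.89 ± 0.44 in the middle arrays over those titled primordial (limma adjusted p = 0.00072). S1PR1 had 2891.6 and 2222.1, then 8725.8 and 7674.9, then 6991.5 and 7951.2, and it rose by 1.68 ± 0.18 in the same comparison (limma adjusted p = 0.000102). Neither passed in last minus middle. Both genes are also expressed outside endothelium. The summed signal of 7 stromal fibroblast genes was 1054.5 and 864.5 in the arrays titled primordial, 22393.7 and 14209.8 in the middle arrays and 20904.4 and 17817 in the last arrays, and its part in these genes was not tested.

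Most tested pericyte and smooth muscle genes were higher in the last arrays than in either other stage. In whole follicles these signals need not come from vessel walls, and the part of vessels in them was not tested. Of 8 tested pericyte and smooth muscle genes, 7 rose in the last arrays over the middle arrays and 7 over those titled primordial, with medians of 1.77 and 2.93, and 5 rose and 1 fell in middle minus primordial. Of all tested probe sets, 17.2%, 33.2% and 47.4% were called in these comparisons, in the same order. TAGLN, an actin-binding protein of smooth muscle, had 328.1 and 255.1 in the arrays titled primordial, 896.4 and 920.4 in the middle arrays and 3249.6 and 2853.5 in the last arrays. ACTG2, a smooth muscle actin, was the 1 that fell in middle minus primordial, by 1.54 ± 0.31 (limma adjusted p = 0.00337), with 196.3 and 354.1, then 63.6 and 101.0, then 5024.6 and 3972.0. The summed signal of the 9 genes on the array was 7562.1 and 6900.4, then 10235 and 11350.3, then 32765.4 and 32856. The summed signal of 6 theca genes was 6389.6 and 6021.2, then 3390.2 and 4699, then 19792.7 and 22867.8, and the theca sum, like CDH5 and VWF, was highest in the last arrays. Single theca genes took other courses in middle minus primordial, where 3 rose (INSL3, HSD3B1 and STAR, the last 2 with the call lost under 2 and 5 of 15 alternatives) and CYP11A1 fell. CYP11A1, the enzyme that starts steroid synthesis, named after its values were seen, had 4673.4 and 4310.7, then 256.2 and 1090.2, then 1609.7 and 1872.4, so it was highest in the arrays titled primordial. All 6 theca genes rose in last minus middle, with CYP11A1 losing that call under 10 of 15 alternatives, and 5 rose in last minus primordial. RGS5, a pericyte marker, did not pass the test in any comparison, with 0.26 ± 0.20 in last minus middle (limma adjusted p = 0.403).

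**Figure D2:**
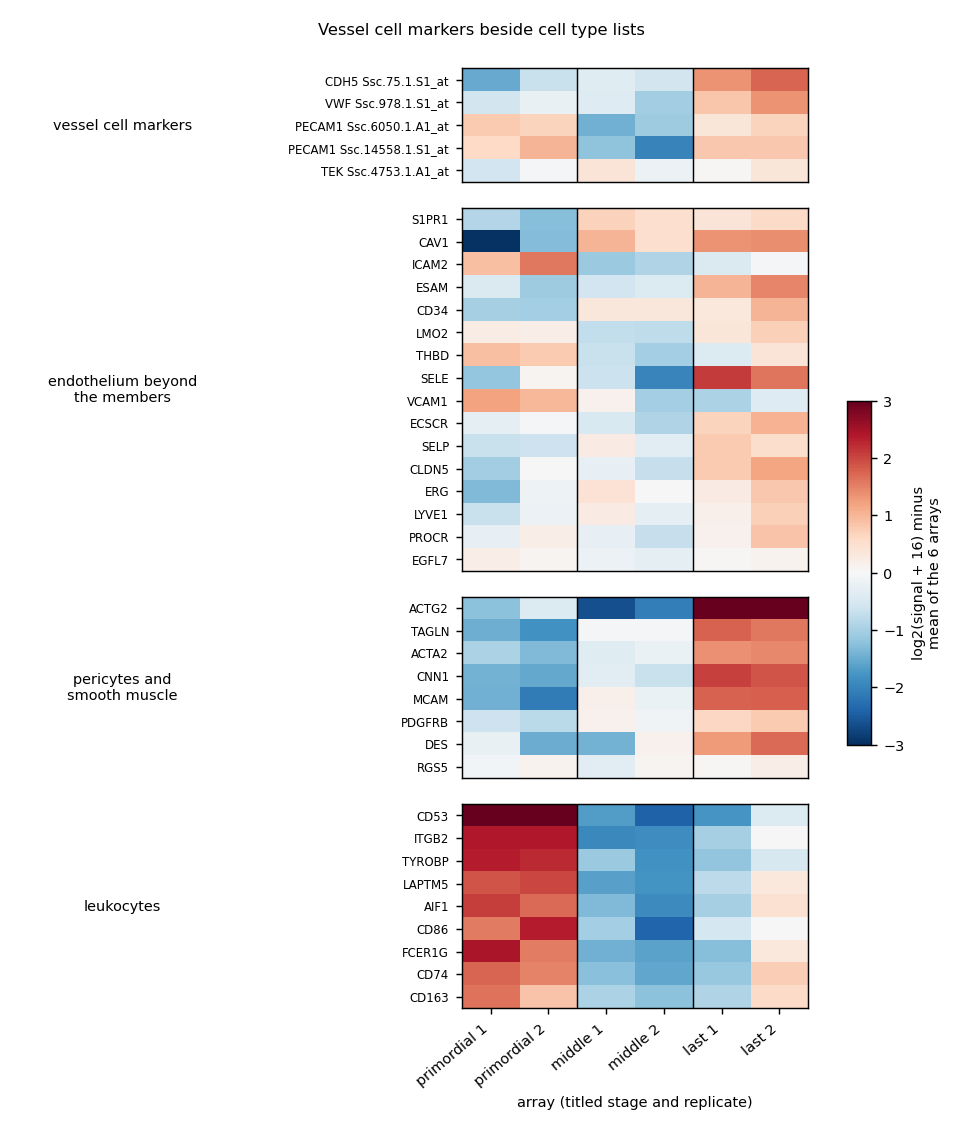
Heat map of log2(signal + 16) minus the mean of the 6 arrays for the 5 tested vessel marker probe sets and for the tested genes of the endothelial, pericyte and smooth muscle, and leukocyte lists. Columns are the 6 arrays in stage order, red is above and blue below the mean, and colours stop at 3 in either direction. CDH5, VWF and most smooth muscle genes are red in the last columns, the leukocyte genes are red in the primordial columns, and PECAM1 is red in both.

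Among the secreted factors, ANGPTL4, ADM, ANGPT1 and 2 of 3 tested VEGFA probe sets were lowest in the middle arrays. They parted in the last arrays, where ANGPT1 and ANGPT2 were above the arrays titled primordial, ANGPTL4 and the same VEGFA probe sets were below them, and ADM did not pass the test.

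ADM showed the widest swing of the tested members. Its signals were 3550.4 and 3374.7 in the arrays titled primordial, 256.7 and 192.8 in the middle arrays and 1791.5 and 3752.6 in the last arrays. The middle arrays were far below all others, and the last arrays, which differed from each other, bracketed those titled primordial. ADM rose in the last arrays by 3.45 ± 0.32 over the middle arrays (10.9-fold, limma adjusted p = 0.000143), and middle minus primordial was -3.87 ± 0.32 (limma adjusted p = 2.95e-05). Last minus primordial was -0.41 ± 0.32 with an interval of -1.13 to 0.30 (limma adjusted p = 0.344). That last value depended on the array kept: it was 0.12 without last replicate 1 and -0.94, which passed, without last replicate 2 (limma adjusted p = 0.773 and 0.0241).

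The ADM receptor is CALCRL joined to RAMP2 or RAMP3. Of 7 listed receptors and relatives 5 were on the array and 2 were tested. CALCRL was dim, at 3.6 to 57.3, as were RAMP3, at 5.1 to 58.3, and RAMP1, which makes the receptor for a related peptide, at 41.9 to 125.3. RAMP2 had 228.1 and 377.5 in the arrays titled primordial, 202.7 and 242.9 in the middle arrays and 371.2 and 388.7 in the last arrays, and none of its differences passed. ADM5, a relative of ADM, had 649.1 and 519.3, then 139.2 and 192.3, then 319.9 and 313.2. It fell by 1.73 ± 0.25 in middle minus primordial (limma adjusted p = 0.000526). Its calls in last minus middle (0.89 ± 0.25, limma adjusted p = 0.0373) and last minus primordial (-0.84 ± 0.25, limma adjusted p = 0.0276) were lost under 9 and 5 of 15 alternatives.

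ANGPTL4 was measured by a pair of probe sets with the same course. The brighter had 3408.7 and 3784.1 in the arrays titled primordial, 331.2 and 277.2 in the middle arrays and 658.1 and 1016.3 in the last arrays. The dimmer had 879.9 and 940.2, then 75.8 and 163.9, then 264.6 and 418.9. The stages did not overlap in either, and their order was primordial, last and middle. The last arrays were above the middle arrays by 1.39 ± 0.24 and 1.44 ± 0.34 (limma adjusted p = 0.00489 and 0.0201) and below those titled primordial, at -2.11 ± 0.24 and -1.41 ± 0.34 (limma adjusted p = 0.000381 and 0.0131). Middle minus primordial was -3.50 ± 0.24 and -2.85 ± 0.34 (limma adjusted p = 1.42e-05 and 0.00021). For the dimmer probe set, last minus middle did not pass without middle replicate 1 or last replicate 2 (limma adjusted p = 0.158 and 0.0893). Its last minus primordial difference did not pass without either primordial array or last replicate 1 (limma adjusted p = 0.0524 to 0.0721).

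ANGPTL4 is a target of the fatty acid sensors PPARG, PPARD and PPARA. Of 11 listed genes of that pathway besides ANGPTL4, 9 were on the array and 8 were tested. In middle minus primordial 4 fell and 2 rose, with a median of -0.39, where 47.4% of all tested probe sets were called. In last minus primordial 6 fell, with a median of -0.95, where 33.2% of all were called. FABP4, a fatty acid carrier of macrophages, fat cells and capillary endothelium, had 2495.8 and 3365.7 in the arrays titled primordial, 3.5 and 4.8 in the middle arrays and 14.0 and 38.4 in the last arrays. PLIN2, a coat protein of lipid droplets, had 7521.9 and 7041.0, then 839.3 and 881.7, then 906.1 and 968.8. Both fell with ANGPTL4 in the middle arrays, and PLIN2 in last minus middle did not pass (0.12 ± 0.17, limma adjusted p = 0.671). HILPDA, a lipid droplet protein induced by low oxygen, moved the other way, at 1.98 ± 0.22 in middle minus primordial and -1.73 ± 0.22 in last minus middle (limma adjusted p = 0.000142 and 0.00103). LPL, the lipase that ANGPTL4 inhibits, had 380.8 and 350.7, then 555.4 and 758.0, then 82.2 and 67.9, and it fell by 2.87 ± 0.25 in the last arrays against the middle arrays (limma adjusted p = 0.000116). The leukocyte sums given above moved with FABP4 and PLIN2, and their part was not tested.

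VEGFA was covered by 4 probe sets that did not agree. The first, with the highest mean signal over the arrays, had 2399.7 and 1753.2 in the arrays titled primordial, 2943.3 and 2841.8 in the middle arrays and 2817.9 and 2743.0 in the last arrays and was lowest in the arrays titled primordial. The second had 5528.9 and 3587.8, then 744.1 and 675.1, then 1938.8 and 1710.8. The third had 716.4 and 562.9, then 63.1 and 58.4, then 201.8 and 139.8. The second and the third had the order primordial, last and middle with no overlap, the same as ANGPTL4. The fourth was dim, at 3.0 to 50.6, and highest in the middle arrays.

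At the first probe set no VEGFA difference passed: middle minus primordial was 0.49 ± 0.19 (limma adjusted p = 0.0591, interval 0.06 to 0.92), last minus middle -0.06 ± 0.19 (limma adjusted p = 0.87) and last minus primordial 0.44 ± 0.19 (limma adjusted p = 0.11). The middle minus primordial difference passed after quantile normalization (0.65, limma adjusted p = 0.0192) and without primordial replicate 1 (0.72, limma adjusted p = 0.0368). At the second and the third probe set, VEGFA fell in the middle arrays against those titled primordial, with differences of -2.62 ± 0.23 and -3.09 ± 0.28 (limma adjusted p = 4.14e-05 and 4.94e-05). It rose in the last arrays by 1.34 ± 0.23 and 1.26 ± 0.28 over the middle arrays (limma adjusted p = 0.00425 and 0.0147) and was below those titled primordial, at -1.28 ± 0.23 and -1.82 ± 0.28 (limma adjusted p = 0.00309 and 0.00157). The intervals of the middle minus primordial difference were 0.06 to 0.92 at the first probe set and -3.14 to -2.11 at the second, and did not overlap. The rise of the third over the middle arrays did not pass without either middle array or last replicate 1 (limma adjusted p = 0.0693 to 0.0837).

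Which stretch of the VEGFA transcript each probe set covers is not given in the sources used here, and VEGFA has several spliced forms. The 3′ minus 5′ difference of the actin control, a measure of RNA length on an array, averaged 3.38 ± 0.24 over the arrays titled primordial, 4.56 ± 0.53 over the middle and 3.72 ± 0.23 over the last arrays (log2, SD, n = 2), with the highest values in the middle arrays. That of the GAPDH control was 3.05 ± 0.52, 3.03 ± 0.35 and 1.88 ± 0.02, and that of the ef1a control 0.84 ± 0.24, 1.10 ± 0.33 and 0.76 ± 0.09. The part of RNA length in the disagreement of the VEGFA probe sets was not tested.

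**Figure D3:**
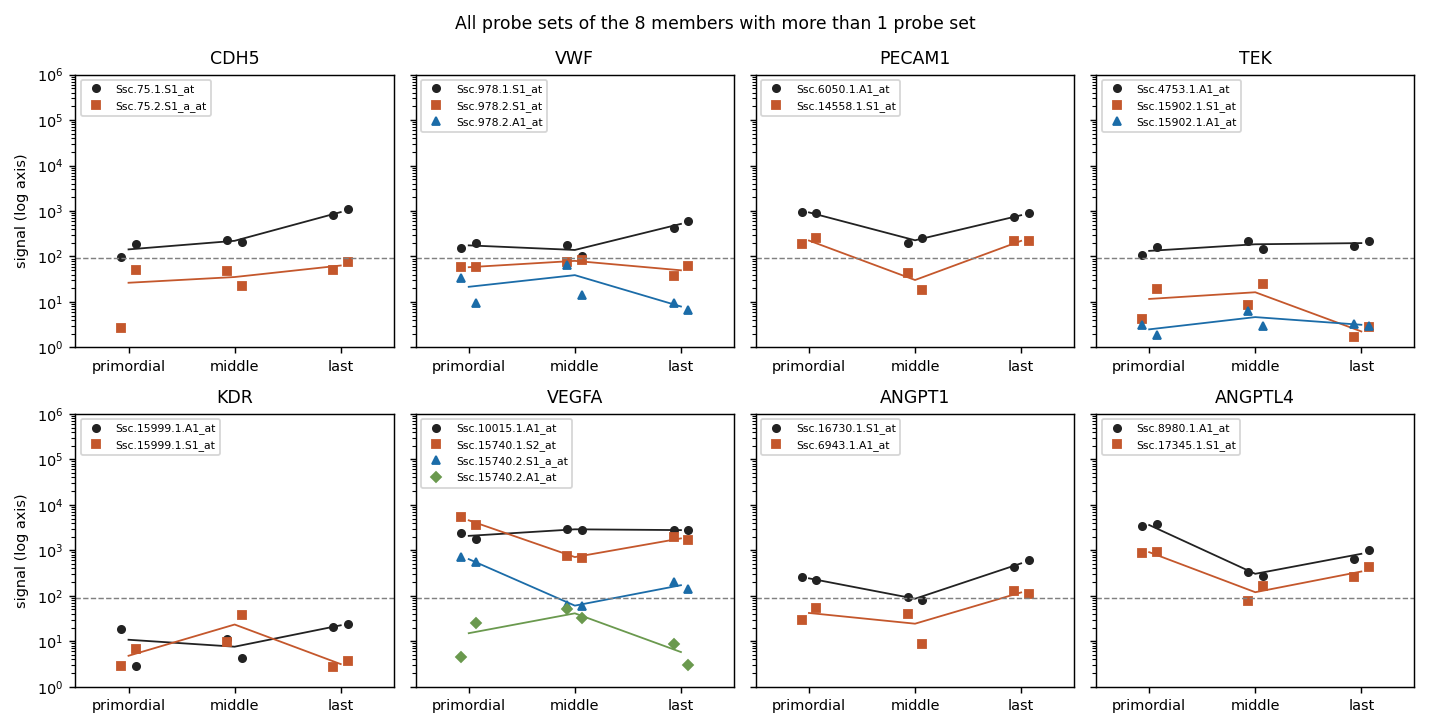
Signal (log axis) of every probe set of the 8 members with more than 1 probe set, by titled stage. Points are arrays, lines join the means of 2 arrays, and the dashed grey line is the filter at a mean signal of 91.3. The PECAM1 and ANGPTL4 probe sets run in parallel, the 4 VEGFA probe sets do not, and both KDR probe sets stay under the filter.

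Of 9 listed ligands and receptors of the VEGF family beside VEGFA and KDR, 3 were on the array and 1 was tested. VEGFB, a ligand of FLT1, had 1737.4 and 1869.6 in the arrays titled primordial, 831.0 and 1000.3 in the middle arrays and 1407.6 and 1286.3 in the last arrays. It fell by 0.97 ± 0.19 in middle minus primordial (limma adjusted p = 0.00291), and last minus middle was 0.55 ± 0.19 (limma adjusted p = 0.077). FLT1, the other VEGFA receptor of endothelium, was dim, at 11.1 to 65.0, and so was the coreceptor NRP2, at 3.7 to 41.3.

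The angiopoietins differed from each other in the middle arrays and were both highest in the last arrays. ANGPT1 had 259.4 and 223.9 in the arrays titled primordial, 93.3 and 79.0 in the middle arrays and 423.5 and 608.9 in the last arrays. The stages did not overlap. ANGPT1 fell by 1.33 ± 0.27 in middle minus primordial (limma adjusted p = 0.00323) and rose by 2.36 ± 0.27 in last minus middle (5.14-fold, limma adjusted p = 0.000518). It rose by 1.03 ± 0.27 in last minus primordial (limma adjusted p = 0.0176), a call that was lost without either primordial array or last replicate 2 (limma adjusted p = 0.0527 to 0.101). Its other probe set was dim but ran the same way, with 29.0 and 54.8, then 40.1 and 8.6, then 125.5 and 111.5. Without the filter, last minus middle was 1.85 ± 0.48 there (limma adjusted p = 0.0513).

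ANGPT2 had 170.2 and 242.2 in the arrays titled primordial, 379.0 and 311.9 in the middle arrays and 496.6 and 765.6 in the last arrays. Each stage lay above the one before it with no overlap, but neither step passed the test. ANGPT2 rose by 1.53 ± 0.28 in last minus primordial (2.89-fold, limma adjusted p = 0.00366). The steps between were 0.71 ± 0.28 for middle minus primordial, with an interval of 0.08 to 1.35, and 0.81 ± 0.28 for last minus middle, with an interval of 0.18 to 1.45 (limma adjusted p = 0.0619 and 0.0776). The step to the middle arrays passed in the fit to the 4 arrays compared and without either last array (limma adjusted p = 0.0405 to 0.0459). The step to the last arrays passed after quantile normalization and without last replicate 1 (limma adjusted p = 0.0475 and 0.0441). In middle minus primordial the intervals of ANGPT1 (-1.94 to -0.73) and ANGPT2 did not overlap.

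TIE1, the partner receptor of TEK and the 1 tested gene of 7 listed partners, had 182.6 and 265.6 in the arrays titled primordial, 407.6 and 1024.1 in the middle arrays and 815.9 and 454.2 in the last arrays. It rose by 1.49 ± 0.43 in middle minus primordial and by 1.40 ± 0.43 in last minus primordial (limma adjusted p = 0.0177 and 0.0316). The first call was lost without primordial replicate 1 or middle replicate 2 (limma adjusted p = 0.099 and 0.146), and the other under 6 of 15 alternatives (limma adjusted p up to 0.167). ANGPTL2, of the same list, was dim, at 50.3 to 107.6.

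Low oxygen raises VEGFA, ANGPTL4 and ADM in many cells, and a list of other genes of the response to it was followed beside them. The list holds the transcription factors HIF1A and EPAS1 themselves as well as responding transcripts. HILPDA, given above with the PPAR list, is not in it. Of 26 listed genes 17 were on the array and 16 were tested. In middle minus primordial 7 fell and 1, CA9, rose, with a median of -0.27, where 47.4% of all tested probe sets were called. In last minus middle 3 passed and rose (EPAS1, LOX and HIF1A), with a median of 0.04, where 17.2% of all were called. The call was lost for LOX under 3 of 14 and for HIF1A under 5 of 15 alternatives. LOX had means of 62.7 and 58.85 in the primordial and middle arrays, below the filter. It entered the test through the last arrays, with a mean of 269.4. EPAS1 and HIF1A were above the filter in every stage. In last minus primordial 4 fell and 2 rose, with a median of -0.16, where 33.2% of all were called. SLC2A1, the glucose transporter, had 1709.3 and 1491.9 in the arrays titled primordial, 350.9 and 317.2 in the middle arrays and 462.4 and 340.2 in the last arrays. HMOX1, a heme-degrading enzyme also abundant in macrophages, had 5679.0 and 6806.7, then 1154.3 and 1373.4, then 1033.6 and 1551.4. Both fell in the middle arrays with ADM and ANGPTL4, but in last minus middle they were at 0.24 ± 0.23 and 0.01 ± 0.23 and did not pass (limma adjusted p = 0.503 and 0.985), where ADM and ANGPTL4 rose. LDHA, the enzyme that forms lactate, was at -1.87 ± 0.24 in middle minus primordial and 0.48 ± 0.24 in last minus middle (limma adjusted p = 0.000309 and 0.21). The part of low oxygen in the courses of VEGFA, ANGPTL4, ADM and the listed genes was not tested.

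EPAS1, the oxygen-regulated transcription factor that is prominent in endothelium, had 450.0 and 565.1 in the arrays titled primordial, 199.7 and 256.7 in the middle arrays and 679.7 and 670.4 in the last arrays. It fell by 1.10 ± 0.23 in middle minus primordial and rose by 1.51 ± 0.23 in last minus middle (limma adjusted p = 0.00392 and 0.00251), with 0.41 ± 0.23 in last minus primordial (limma adjusted p = 0.202). PECAM1 and ADM had calls of the same signs in middle minus primordial and in last minus middle. In last minus primordial none of these genes was called, and the differences of PECAM1 and ADM were negative there, unlike that of EPAS1.

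**Figure D4:**
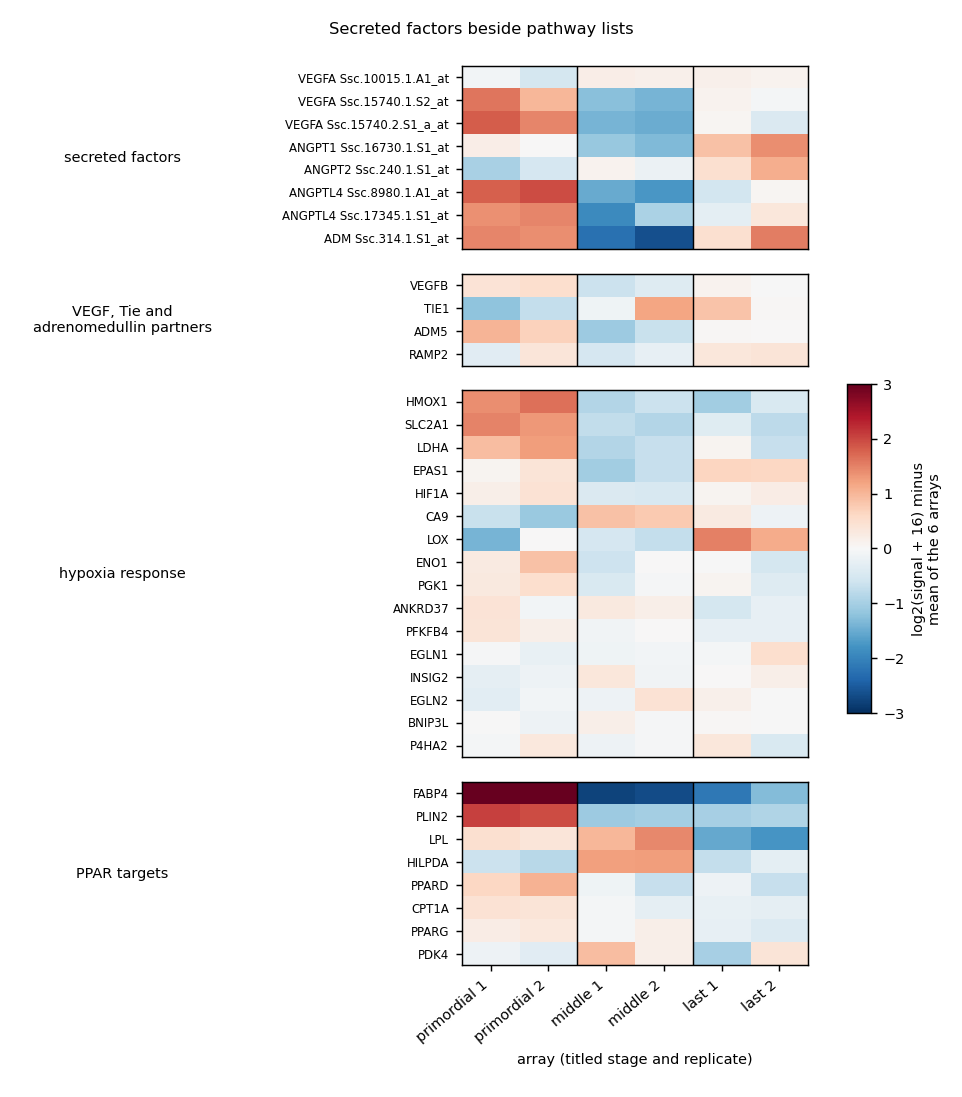
Heat map of log2(signal + 16) minus the mean of the 6 arrays for the 8 tested probe sets of the secreted factors and for the tested genes of the VEGF, Tie and adrenomedullin, hypoxia and PPAR lists. Columns are the 6 arrays in stage order, red is above and blue below the mean, and colours stop at 3 in either direction. ADM and ANGPTL4 are blue in the middle columns, and ADM, unlike SLC2A1 and HMOX1, is red again in the last columns.

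Counted by probe set, every call between neighbouring stages had the middle arrays as the lower side. CDH5 and VWF were called only against the last arrays. The middle arrays of CDH5 lay above those titled primordial, a difference that did not pass. Of the 13, 3 (TEK, the first VEGFA probe set and ANGPT2) passed in neither comparison. In middle minus primordial 8 of the 13 tested probe sets were called, where 47.4% of all tested probe sets were called (29.7% higher and 17.7% lower). All 8 were lower: both of PECAM1 among the 5 vessel marker probe sets, and 6 of the 8 factor probe sets (VEGFA, ANGPT1, ANGPTL4 and ADM). No member was called higher by limma, and at an unadjusted p under 0.05 there were 2, the first VEGFA probe set and ANGPT2. The median difference was -0.33 for the vessel markers and -2.74 for the factors, against 0.22 for all tested probe sets. With 1 probe set a gene, the brightest, 4 of 9 tested members were lower (PECAM1, ANGPT1, ANGPTL4 and ADM), and the medians were 0.05 for the vessel markers and -1.33 for the factors.

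In last minus middle 10 of the 13 were called, where 17.2% of all tested probe sets were called (7.29% higher and 9.94% lower). All 10 were higher: 4 of the 5 vessel marker probe sets and 6 of the 8 factor probe sets, the exceptions being TEK, the first VEGFA probe set and ANGPT2. No member was called lower by limma, and the count at an unadjusted p under 0.05 was 0 as well. The medians were 1.81 for the vessel markers and 1.36 for the factors, against -0.07 for all tested probe sets, and 1.79 and 1.39 with the brightest probe set of each gene. Counted by that probe set, 3 of 4 tested vessel markers and 3 of 5 factors were higher.

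In last minus primordial 8 of the 13 were called, where 33.2% of all tested probe sets were called (19.8% higher and 13.4% lower). Of the vessel markers, CDH5 and VWF were higher. Of the factors, ANGPT1 and ANGPT2 were higher and 4 probe sets, those of ANGPTL4 and 2 of VEGFA, were lower. The medians were 0.53 for the vessel markers and -0.85 for the factors, and with the brightest probe set of each gene alone the factor median was 0.44, since the first VEGFA probe set then stands for that gene. Counted in that way, 2 of 4 tested vessel markers were higher, and of 5 factors 2 were higher and 1 was lower. Courses crossed the classes: between neighbouring stages PECAM1, a vessel marker, had calls of the same signs as ADM. The angiopoietins were highest in the last arrays, as CDH5 and VWF were. Any pair of the 3 comparisons shares the arrays of a stage, so their values are not independent. Over any stage difference, 11 of the 13 were called by the F-test, TEK and the first VEGFA probe set being the others, where 50.3% of all tested probe sets were called. With the brightest probe set of each gene, the F-test called 3 of 4 tested vessel markers and 4 of 5 factors.

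The probe sets that passed the filter were brighter by choice, and the share of members called is not a property of all 22. A probe set that is bright in a single stage can pass on that stage alone, among the members and in every list. Over the 27 differences of the 9 dim probe sets, limma without the filter called 0, and 4 had an unadjusted p under 0.05. The number of calls over all probe sets also moved with single arrays: it was 4356 without middle replicate 1, against 6821, in middle minus primordial, 727 without middle replicate 1 and 1440 without middle replicate 2, against 2481, in last minus middle, and 2900 and 2730 without primordial replicates 1 and 2, against 4786, in last minus primordial. The share of all calls that were higher was 62.7%, 42.3% and 59.7% in the 3 comparisons. It was 47.5%, 54.8% and 47.4% when array medians were set equal, and 52.5%, 48.1% and 51.1% after quantile normalization.

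**Figure D5:**
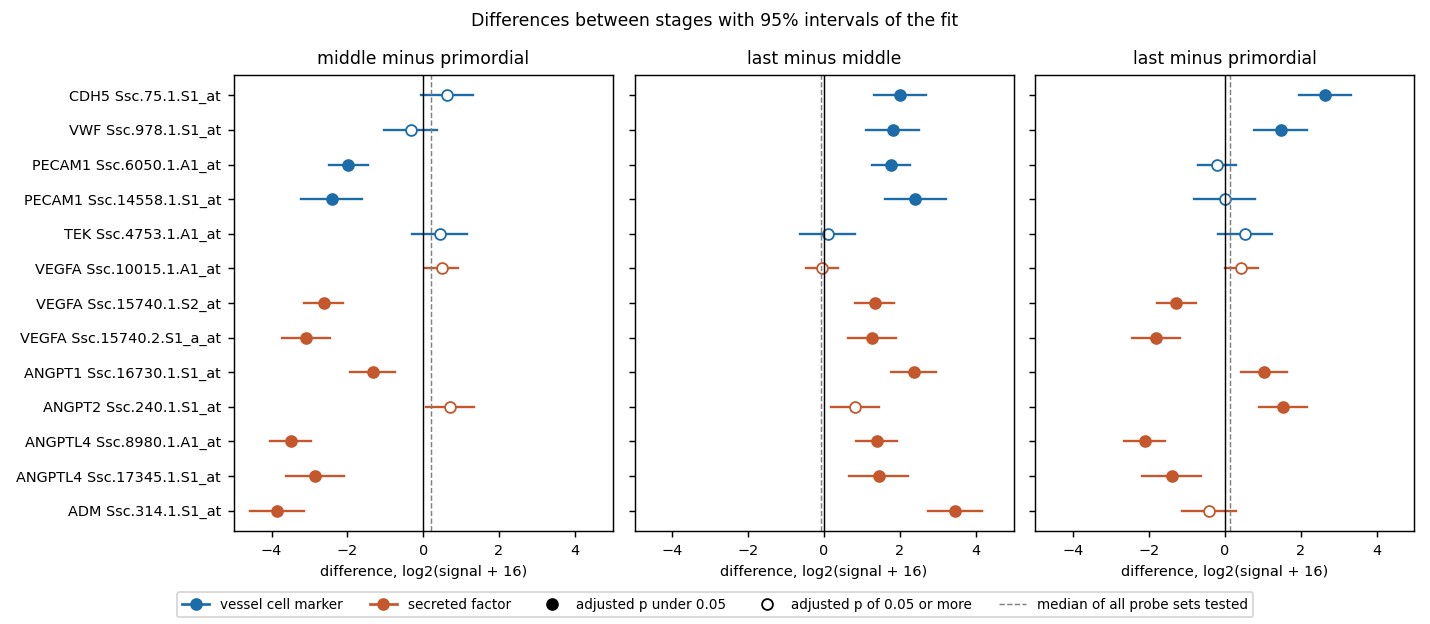
Differences in log2(signal + 16) between stages for the 13 tested probe sets, with 95% intervals of the limma fit. Vessel cell markers are blue and secreted factors orange, filled points have an adjusted p under 0.05, and the dashed grey line is the median of all tested probe sets. In last minus middle the filled points all lie right of 0, while in last minus primordial CDH5, VWF, ANGPT1 and ANGPT2 lie right and ANGPTL4 and 2 VEGFA probe sets lie left.

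For CDH5, PECAM1, VEGFA and ADM, the genes with the most similar course were sought among 5432 genes by Pearson's r over the 6 arrays, as a description without a test. With 3 stages that differ in many genes, high values are common. The closest to CDH5 were SRPX2 (r = 0.996), COPZ2 (r = 0.9904) and CPQ (r = 0.9884), all highest in the last arrays. SRPX2, a secreted protein with a reported role in endothelial migration, had 50.3 and 77.1 in the arrays titled primordial, 88 and 74.1 in the middle arrays and 236.8 and 267.8 in the last arrays. The closest to PECAM1 at its brighter probe set were HSPA5 (r = 0.9941), RHOB (r = 0.9937) and SFT2D1 (r = 0.9931). HSPA5, the chaperone of the endoplasmic reticulum, had 30638.5 and 30542.6, then 12055.2 and 15070.5, then 25053.7 and 27407.1.

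The closest to ADM were TMEM208 (r = 0.9968), KLF4 (r = 0.9938) and IER2 (r = 0.9938). KLF4 and IER2 are immediate-early genes, and KLF4 had 10316.4 and 8344.9 in the arrays titled primordial, 369.3 and 359.2 in the middle arrays and 5631 and 8712.7 in the last arrays. TMEM208 varied far less in size, with 682 to 961.3 over all arrays, since r does not measure the size of a difference. The closest to the first VEGFA probe set were TACO1 (r = 0.9935), LIN52 (r = 0.9851) and APIP (r = 0.9828), which shared its lowest value in primordial replicate 2.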

How the data were processed

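Total RNA was extracted with Trizol and labelled as biotinylated cRNA, per the labels' protocols, and hybridised to 6 single-channel arrays. The deposited table holds 1 linear intensity per probe set, made with the array software GCOS per the submitters' processing notes, whose version and settings the sources used here do not name. The intensity mean, trimmed by 2% at each end, was 500.1 on all arrays, so the authors had scaled them. Detection calls were not used here.

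Tests left out 124 control probe sets. Of the other 23999 the platform annotation, which can be old, names a single gene for 10069, several genes for 198 and no gene for 13732, and only the first kind was named. By gene identifier, 9961 of them were found in the RefSeq gene table, with 0 symbols changed. No genome build is named in the sources used here, so no positions are given. Values were log2(signal + 16), and 12.8% to 18% of probe sets per array were at 16 or less. The 40% with the lowest mean signal were left out, which kept 14399. limma 3.58.1 in R 4.3.3 (lmFit, eBayes with an intensity trend) was fitted to all 6 arrays without a replicate block, with 3 residual and 6.33 prior degrees of freedom. Tests were two-sided with Benjamini-Hochberg adjustment and a threshold of 0.05. The number of arrays limits the precision. Dim member probe sets were read from the same fit without the filter.

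All member probe sets are named. From each list, taken at the brightest probe set of each gene, the text names up to 4 genes with the smallest F-test p, plus the members of small counts, which were chosen after their values were seen. The lists cover VEGF, angiopoietin and Tie, adrenomedullin, other angiogenic genes, vessel growth inhibitors, hypoxia, PPAR targets, endothelium, pericytes and smooth muscle, leukocytes, platelets, red cells, oocyte, granulosa, theca and stromal fibroblasts. The members and lists were chosen with earlier results of these data known, and no test over a list was run. The fit was tested on simulated data. Figures were drawn with matplotlib 3.10.9 in Python 3.11.15. The alternatives were other scaling, pseudocounts of 1 and 64, no filter or a 60% filter, no intensity trend, a fit to the 4 arrays compared, a replicate block and each array left out.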

Additional observations from a re-analysis of the deposited data

How the results depend on the processing

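Of 26 called differences of the members, 22 passed under every alternative run, and the other 4 lost the call only with an array left out, as given with VEGFA, ANGPT1 and ANGPTL4. All 26 kept their direction. Uncalled differences changed sign in a few cases, each within its interval. VWF in middle minus primordial was 0.002107 without middle replicate 2, and -0.6671 to 0.002107 over the arrays left out. VEGFA at its first probe set was 0.05064 in last minus middle with each array centred on its median. TEK in last minus middle was -0.1855 without middle replicate 2 and -0.06744 without last replicate 2, with a range of -0.1855 to 0.3807. PECAM1 at its dimmer probe set was 0.2029 in last minus primordial without primordial replicate 2, with a range of -0.2146 to 0.2029. ADM in last minus primordial was 0.116 without last replicate 1, with a range of -0.944 to 0.116. The number of probe sets called with an array left out was 4356 to 7189 in middle minus primordial, 727 to 2172 in last minus middle and 2730 to 4297 in last minus primordial. A fit with fewer arrays has fewer degrees of freedom. The 60% filter left out PECAM1 at its dimmer probe set and TEK, which therefore have no value there. Of 102 called differences of the list genes named in the text, 67 passed under every alternative run. Arrays with the same replicate number did not deviate together (correlations of 0.0593, 0.0318 and -0.0476 between stages). With 2 arrays a stage this cannot exclude a shared animal or batch, and no source used here says whether the numbers stand for one. With the replicate block, 6601, 2279 and 4532 probe sets were called in the 3 comparisons and 6915 by the F-test, with 8, 10, 8 and 11 of the member probe sets, as without it. Signal over background could not be judged without detection calls, and the courses of KDR, CALCRL and FLT1 are not resolved at these signals.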

Other observations

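Other ligands and receptors of vessel growth were measured for 18 of 33 listed genes, of which 14 were tested. In middle minus primordial 2 rose and 4 fell, in last minus middle 4 rose and 1 fell, and in last minus primordial 4 rose and 2 fell. Of all tested probe sets, 47.4%, 17.2% and 33.2% were called in these comparisons. CXCL12, a chemokine that guides endothelial and blood cells, had 9.0 and 29.2 in the arrays titled primordial, 878.1 and 468.3 in the middle arrays and 327.3 and 669.0 in the last arrays, and it rose by 4.29 ± 0.44 in middle minus primordial (limma adjusted p = 8.87e-05). Its receptor CXCR4, also abundant on leukocytes, fell in the same comparison by 1.68 ± 0.26 (limma adjusted p = 0.000847), with 3120.9 and 3423.3, then 1233.4 and 824.3, then 673.1 and 1031.0. TGFB1 fell by 3.18 ± 0.33 (limma adjusted p = 9.92e-05). EDN1, the vessel-constricting peptide endothelin, had 326.1 and 222.0, then 37.3 and 63.5, then 231.9 and 315.9, the course of ADM, its dilating counterpart: it fell by 2.13 ± 0.33 in middle minus primordial and rose by 2.14 ± 0.33 in last minus middle (limma adjusted p = 0.000824 and 0.0027), with 0.01 ± 0.33 in last minus primordial (limma adjusted p = 0.99). The other genes that rose in last minus middle, EFNB2, ENG and DLL4, and the 1 that fell, FGFR1, were chosen after their values were seen and lost that call under 1 to 8 alternatives.

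Inhibitors of vessel growth were measured for 5 of 12 listed genes. ADAMTS1, a protease with antiangiogenic activity that is induced at ovulation, had 2872.5 and 2769.5 in the arrays titled primordial, 1115.6 and 882.5 in the middle arrays and 5017.3 and 5343.3 in the last arrays. It fell by 1.49 ± 0.18 in middle minus primordial and rose by 2.36 ± 0.18 in last minus middle and by 0.87 ± 0.18 in last minus primordial (limma adjusted p = 0.000215, 5.09e-05 and 0.00622). SERPINF1, which encodes the antiangiogenic protein PEDF, rose by 1.59 ± 0.24 in last minus middle (limma adjusted p = 0.00249) and by 1.01 ± 0.24 in last minus primordial (limma adjusted p = 0.0119), the last of which was lost under 3 alternatives, each with an array left out. THBS1, THBS2 and TIMP3 did not pass in any comparison.

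Of 3 red cell genes on the array HBB and ALAS2 were tested, and HBB was called. HBB, the beta chain of hemoglobin, had 726.3 and 667.9 in the arrays titled primordial, 1691.4 and 1597.5 in the middle arrays and 1310.8 and 1028.3 in the last arrays, and it rose by 1.22 ± 0.20 in middle minus primordial (limma adjusted p = 0.00113), where PECAM1 fell. The summed signal of 10 granulosa genes was 40673 and 53797.2, then 13449.4 and 19502.5, then 65469.3 and 59348.4. On the middle arrays the sum was below that of either other stage. Of its 8 tested genes 5 were lower and 1 was higher in middle minus primordial, and 5 were higher and 2 lower in last minus middle. Of all tested probe sets, 47.4% and 17.2% were called in these comparisons. The 1 that was higher in the middle arrays was AMH, a hormone of small growing follicles, with 198.6 and 273.0, then 969.5 and 1763.9, then 106.6 and 112.7. The part of granulosa cells in the levels of ADM, ANGPTL4 and VEGFA was not tested.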
